A study of Mus musculus with 7 samples.

Results

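The 10 genes Trp63, Acta2, Myh11, Cnn1, Tagln, Mylk, Oxtr, Itga6, Itgb4 and Lamb3 mark the basal and myoepithelial layer of the mammary gland, and the accessible chromatin around them was compared between Dll1+ and Dll1− mammary tumour cells. A region was assigned to one of these genes when the protein-coding transcription start site (TSS) nearest to its midpoint belonged to that gene. By this rule 128 of 119215 regions belonged to the 10 genes. Regions were formed by merging the rows of the 2 deposited peak lists wherever they overlapped or touched. They were called shared where both lists contributed a row. All coordinates are on GRCm38 (mm10).

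ATAC-seq uses a transposase that inserts sequencing adapters into DNA not covered by nucleosomes, so that open promoters and enhancers give peaks of reads. It was applied to tumour cells of mice on a C57BL/6 background that carried both MMTV-PyMT, in which a mammary tumour virus promoter drives the polyoma middle T oncoprotein in mammary epithelium, and Dll1-mCherry, a reporter of the Notch ligand gene Dll1 on a bacterial artificial chromosome. Cells bearing CD45, CD31 or Ter119 had been removed in the sort, and the others were split into mCherry+ (Dll1+) and mCherry− (Dll1−) cells. All 7 samples therefore carried the oncogene and the reporter. They came from 4 tumours, and the Dll1+ list pooled 3 samples while the Dll1− list pooled 4 samples. Both populations were taken from 3 of the tumours, and the other tumour gave Dll1− cells only. What that tumour added to the Dll1− list cannot be told apart in the pooled list. With 1 pooled list a group there are no replicates, no difference given here can be set against biological spread, and no test or p-value was computed.

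The mammary duct has an inner luminal layer and an outer basal layer. Basal cells are held to the basement membrane by integrins and laminins, depend on the p53 family factor p63, and contract through smooth muscle proteins when oxytocin is released during suckling. Smooth muscle genes are classically controlled by serum response factor (SRF), which binds a short sequence called the CArG box, together with myocardin family coactivators. Several of these genes are not particular to the basal layer: vascular smooth muscle and pericytes use the contractile genes, and Itga6 is also present in luminal progenitors.

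The lists differed in depth. Reads at each summit, recovered from the deposited values, stood on a genome-wide background of 3.74 reads for Dll1+ cells and 7.20 for Dll1− cells, and a region missing from the Dll1+ list is one that was not called at that lower depth. Strength was therefore compared by rank. Each region was given the percentile of its strongest row, by fold enrichment over local background, among all rows of its own list, and a rank difference is the Dll1+ percentile minus the Dll1− percentile. Read counts are printed with exact Poisson 95% intervals, which cover counting error only, as do all other intervals here.

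Most regions of the basal genes were open in both populations. Of the 128 regions, 82 (64.1%, Wilson 95% interval 55.5 to 71.9%) were shared, 14 (10.9%, 6.63 to 17.5%) were in the Dll1+ list only and 32 (25%, 18.3 to 33.2%) were in the Dll1− list only. Over all regions the shares were 66.4%, 9.01% and 24.6%, so the basal genes as a group were close to the background in each class. The genes differed among themselves. All 11 regions of Acta2, Cnn1 and Tagln were shared, whereas Myh11 had 2 shared regions of 9, with 6 in the Dll1− list only and 1 in the Dll1+ list only. Trp63 held the most regions, 35, of which 16 were shared, 7 were in the Dll1+ list only and 12 were in the Dll1− list only. It supplied 7 of the 14 Dll1+ only regions of the 10 genes. Itga6 had 20 shared regions of 27, with 6 in the Dll1− list only.

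**Figure D1:**
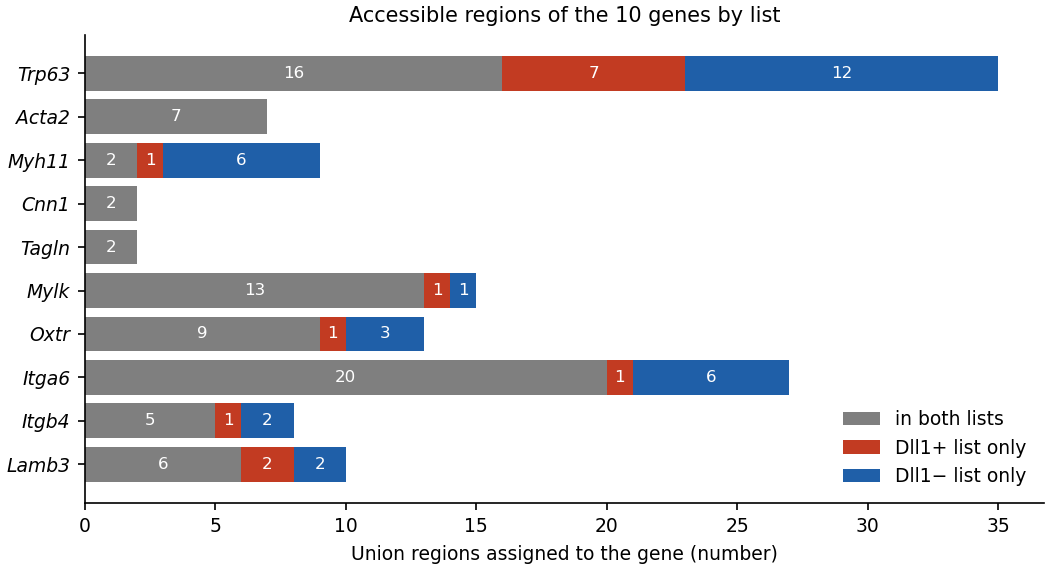
Number of union regions assigned to each of the 10 genes, divided into regions in both lists (grey), in the Dll1+ list only (red) and in the Dll1− list only (blue). Acta2, Cnn1 and Tagln had shared regions only, and 6 of the 9 Myh11 regions were in the Dll1− list only.

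Regions found in only 1 list were mostly weak, as they were over all genes. The strongest Dll1+ only region of the 10 genes reached percentile 48.9 and the strongest Dll1− only region reached 71.0. Of the 32 Dll1− only regions 5 lay above the 50th percentile of their list (background 22.3% of all such regions), and of the 14 Dll1+ only regions 0 did (background 15.4%). The 128 regions lay mainly in introns (81, of which 74 were in introns of the gene itself) and in intergenic DNA (33). Another 6 had their midpoint in a promoter window, 3 in an untranslated region, 3 in a coding exon and 2 in a non-coding exon. Median region width was 405 bp against 445 bp over all regions, and median GC content was 50.2% in both.

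Among the 82 shared regions, 28 ranked at least 10 points higher in the Dll1− list (34.1%, background 25.1%) and 12 ranked at least 10 points higher in the Dll1+ list (14.6%, background 15.2%). The median rank difference was −4.11 points, against −1.67 over all 79153 shared regions. This median owed much to Itga6: without that gene it was −1.97, and without Trp63 as well −1.42. The share of regions with a difference of at least 10 points toward Dll1− did not fall with the median. Leaving out both genes, it was 17 of 46 (37.0%), and the share toward Dll1+ was 6 of 46 (13.0%). On the scale of recovered reads the median log2 ratio of Dll1+ to Dll1− reads, taken relative to the median of all shared regions, was −0.07. By role, the median rank difference was −2.98 for the regulator Trp63, −3.13 for the contractile genes (−1.24 without Mylk), −7.37 for the receptor gene Oxtr and −4.22 for the adhesion genes.

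**Figure D2:**
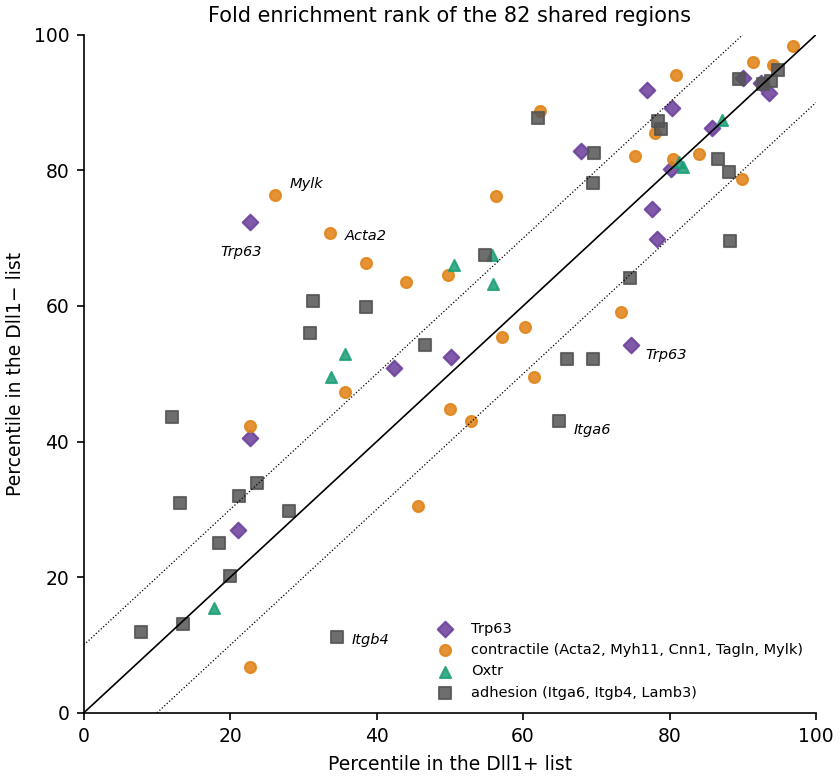
Percentile of fold enrichment of each of the 82 shared regions, Dll1+ list on the horizontal and Dll1− list on the vertical axis, coloured by the role of the gene. The solid line marks equal rank and the dotted lines a difference of 10 points. Of the points, 28 lie on or above the upper dotted line and 12 on or below the lower one, and regions in the top right corner, the strongest of both lists, lie close to the solid line.

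Promoters of these genes were open in both populations. A promoter window was taken as 1000 bp upstream to 100 bp downstream of an annotated protein-coding start, and 8 of the 10 genes had a shared region in one (background 59.7% of 21840 protein-coding genes). The exceptions were Trp63 and Mylk, described below. Of the 10 genes, 0 had a promoter region in the Dll1− list only (background 3.18%) or in the Dll1+ list only (background 0.664%). The adhesion gene promoters were among the strongest regions of both lists. Those of Acta2, Cnn1 and Myh11 ranked lower. The promoter regions of Cnn1 and Tagln differed most between the lists by fold enrichment, by 11.9 and 11.2 points, each ranking higher in the Dll1+ list. Ranked on −log10 p these differences were 6.03 and 8.01 points, and the Myh11 promoter then differed most, by −10.8 points.

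**Figure D3:**
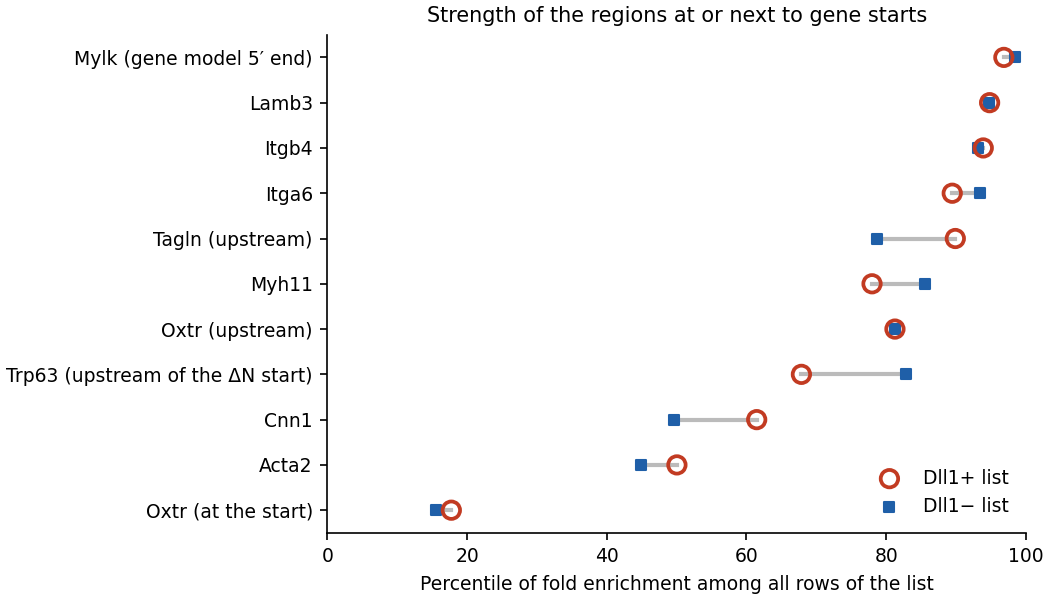
Percentile of fold enrichment in the Dll1+ list (open red circles) and the Dll1− list (blue squares) for the 9 regions in promoter windows, the region at the 5′ end of the Mylk gene model and the region upstream of the ΔN start of Trp63. The Mylk, Lamb3, Itgb4 and upstream Oxtr points nearly coincide, the Tagln and Cnn1 circles lie to the right of their squares, and the Trp63 circle lies to the left.

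Trp63 encodes p63, the transcription factor on which basal epithelial identity depends. It has an upstream start that gives the TA forms and an internal start that gives the ΔN forms, of which ΔNp63 is the form that basal epithelium uses. Neither start had a region in its promoter window in either list. The TA start, at position 25683763 of chromosome 16, had its nearest region 39.4 kb away, in the Dll1− list only. The ΔN start, at 25801916, had a shared region at chr16:25799603-25799938 that ended 1978 bp upstream. That region held 36 reads in the Dll1+ list (25.2 to 49.8) and 83 in the Dll1− list (66.1 to 103), at percentiles 67.9 and 82.8. Its rank was 14.9 points lower in the Dll1+ list.

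The strongest Trp63 regions lay far from its starts, and some but not all of them were alike in rank. The region at chr16:25942183-25942764, 141 kb downstream of the ΔN start, was the strongest Trp63 region of the Dll1+ list, with percentiles of 93.6 (Dll1+) and 91.5 (Dll1−) and 115 and 247 reads. Its neighbour at chr16:25948008-25948524 stood at 92.5 and 92.8. An intronic region 21.6 kb upstream of the ΔN start, at chr16:25779859-25780675, stood at 90.1 and 93.7. These 3 regions differed between the lists by less than 4 points in rank. Their relative log2 read ratios were −0.40, −0.24 and −0.17, all toward Dll1−. The region upstream of the ΔN start had −0.50, and the median over the 16 shared Trp63 regions was −0.20. A region at chr16:25623898-25624922, 59.4 kb upstream of the TA start, was as strong in the Dll1− list, at percentile 91.8 with 212 reads (184 to 243), but stood at 76.9 with 62 reads (47.5 to 79.5) in the Dll1+ list. Its relative log2 read ratio was −1.07.

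Other Trp63 regions differed in rank in both directions. The shared region at chr16:25615582-25615990, in intergenic DNA 68.0 kb upstream of the TA start, had 16 reads in the Dll1+ list (9.15 to 26.0) and 63 in the Dll1− list (48.4 to 80.6). Its percentiles were 22.7 and 72.4, a difference of −49.7 points. In the other direction, an intronic region at chr16:25758141-25758432 had 42 reads (30.3 to 56.8) and 43 reads (31.1 to 57.9) despite the lower Dll1+ depth, at percentiles 74.8 and 54.3, a difference of 20.5 points. Over the 16 shared Trp63 regions, 4 ranked at least 10 points higher in the Dll1− list and 1 did so in the Dll1+ list. Of the 19 regions found in 1 list only, the strongest were an intronic region at percentile 60.9 in the Dll1− list and a region over the 3′ part of the gene at percentile 48.9 in the Dll1+ list.

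**Figure D4:**
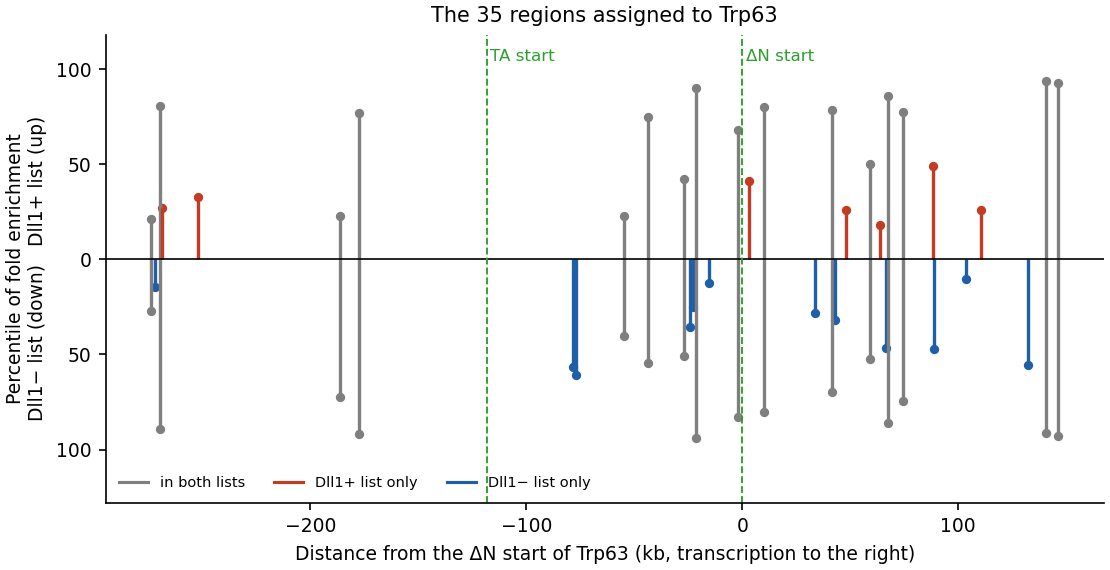
The 35 regions assigned to Trp63 by distance from its ΔN start (kb, horizontal), with the percentile of fold enrichment drawn upward for the Dll1+ list and downward for the Dll1− list. Grey lines are shared regions, red lines Dll1+ only and blue lines Dll1− only; the tallest upward lines stand at the right end, no line stands at the dashed TA start, and the red and blue lines reach percentile 60.9 at most.

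The contractile genes encode smooth muscle α-actin (Acta2), smooth muscle myosin heavy chain (Myh11), calponin 1 (Cnn1), transgelin (Tagln) and myosin light chain kinase (Mylk), the enzyme that switches smooth muscle myosin on. Together they had 35 regions, of which 26 were shared, 2 were in the Dll1+ list only and 7 were in the Dll1− list only. Myh11 accounted for 6 of those 7.

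The start of Acta2, at position 34255590 of chromosome 19, was covered by a shared region of middling strength, with 27 reads for Dll1+ cells and 43 for Dll1− cells, at percentiles 50.04 and 44.9. Upstream of it, 2 shared regions ranked higher in Dll1+ cells and 1 ranked lower. The region 10.2 kb upstream, at chr19:34265503-34266118, had 63 reads (48.4 to 80.6) in the Dll1+ list and 54 (40.6 to 70.5) in the Dll1− list, with percentiles of 73.4 and 59.1. The region 7.18 kb upstream stood at 45.7 and 30.5, and the region 14.9 kb upstream at 49.8 and 64.5. The largest difference lay within the gene. The intronic region at chr19:34248591-34248923 had 23 reads (14.6 to 34.5) in the Dll1+ list and 75 (59.0 to 94.0) in the Dll1− list, and its percentile was 33.7 against 70.7, a difference of −37.0 points. The strongest Acta2 region, in another intron at chr19:34243770-34244484, was even, with 73 and 117 reads and percentiles of 80.5 and 81.7. Of the 7 shared Acta2 regions, 2 ranked at least 10 points higher in the Dll1+ list and 3 did so in the Dll1− list.

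The start of Myh11 was covered by a shared region with 59 Dll1+ and 131 Dll1− reads, at percentiles 78.0 and 85.5. Its strongest region was intronic, at chr16:14237147-14237682, 53.9 kb into the gene, with 49 reads (36.3 to 64.8) and 126 reads (105 to 150) and percentiles of 80.9 and 94.0. Thus both shared Myh11 regions ranked lower in the Dll1+ list. The strongest of its 6 Dll1− only regions, at chr16:14258884-14259289 in an intron, had 61 reads (46.7 to 78.4) and reached percentile 71.0, the highest of any region of the 10 genes found in 1 list only. The other 5 lay between percentiles 7.45 and 36.7. The only Dll1+ only region of Myh11 was intronic and stood at percentile 34.1. Myh11 and Acta2 are also expressed by vascular smooth muscle, and markers of pericytes and vascular smooth muscle were counted beside Myh11. Of the 62 regions of 8 such genes, 24 (38.7%) were in the Dll1− list only, against 24.6% of all regions, and 3 of the 8 genes had a promoter region in the Dll1− list only (background 3.18% of protein-coding genes) against 0 in the Dll1+ list only (background 0.664%). Of the remaining genes 3 had a promoter region in both lists and 2 in neither, and of the remaining regions 33 were shared and 5 were in the Dll1+ list only. Of 10 fibroblast genes, 38 of 92 regions (41.3%) were in the Dll1− list only, 3 in the Dll1+ list only and 51 were shared; 4 genes had a promoter region in the Dll1− list only, 1 in both lists and 5 in neither. The part of such cells in the Myh11 result was not tested. Of 8 immune genes, 12 of 34 regions (35.3%) were in the Dll1− list only; 1 gene had a promoter region in both lists, 1 in the Dll1− list only and 6 in neither. Of 7 endothelial genes, 22 of 77 regions (28.6%) were in the Dll1− list only; 1 gene had a promoter region in both lists and 6 in neither. The genes for CD45 and CD31, which were used in the sort, were among those with no promoter region, but both had regions elsewhere. The CD45 gene had 17 regions, of which 11 were shared, 2 were in the Dll1+ list only and 4 in the Dll1− list only. The CD31 gene had 6, of which 3 were shared and 3 were in the Dll1− list only.

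Cnn1 and Tagln had 2 regions each. The Cnn1 start was covered by a region at chr9:22099028-22099354 with 64 reads (49.3 to 81.7) in the Dll1+ list and 89 (71.5 to 110) in the Dll1− list, at percentiles 61.5 and 49.6. Its other region, 3.03 kb upstream, was far stronger in both lists, with 138 and 306 reads and percentiles of 91.3 and 96.0. Tagln had no region over its start. A region whose nearer edge lay 738 bp upstream of it, at chr9:45936796-45937274, had 93 reads (75.1 to 114) and 108 reads (88.6 to 130) and percentiles of 89.9 and 78.7. The second Tagln region, in an intron of the neighbouring gene Pcsk7, was weak in both lists, at 22.7 and 6.82. Tagln was the gene with the highest median rank difference, 13.5 points over its 2 regions.

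Mylk had 13 shared regions of 15. Neither of its annotated protein-coding starts had a region in its promoter window, the nearest regions being 1924 bp upstream of the first and 1094 bp downstream of the second. The 5′ end of the whole gene model, at position 34745210 of chromosome 16, was covered by a shared region with 168 Dll1+ and 290 Dll1− reads. At percentiles 96.8 and 98.4, it was the strongest region of the 10 genes in both lists. Inside the gene, 6 of the 13 shared regions ranked at least 10 points higher in the Dll1− list and 0 did so in the Dll1+ list. The largest difference of any shared region of the 10 genes was the intronic region at chr16:34920730-34921678, with 17 reads (9.90 to 27.2) in the Dll1+ list and 86 (68.8 to 106) in the Dll1− list and percentiles of 26.1 and 76.4. The intronic regions at chr16:34804345-34804858 and chr16:34967532-34967910 also ranked lower in the Dll1+ list, by −27.8 and −26.5 points. In the other direction the largest difference in Mylk was 9.86 points, at an intronic region 3.37 kb upstream of the second coding start with 39 Dll1+ and 42 Dll1− reads.

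The CArG box was found within 100 bp of the strongest summit in 4 of the 128 regions (3.12%, interval 1.22 to 7.76%), against 1.01% of all regions. Windows of 50 bp on each side gave 2 of 128 (1.56%), against 0.487% of all regions. The 4 regions belonged to Trp63, Acta2, Mylk and Itga6, and all were shared. In the Acta2 and Trp63 regions described above, 10.2 kb upstream of Acta2 and 141 kb downstream of the ΔN start, the match lay within 5 bp of the summit and had the same 10 letters. These sequences are shown because they place the same SRF consensus near the summit of a region of a contractile gene and of a region of the basal regulator. Each runs from 100 bases before to 100 bases after the summit, 5′ to 3′ on the strand of the gene, with the CArG box in capitals.
Acta2, upstream region (chr19:34265739-34265939, minus strand): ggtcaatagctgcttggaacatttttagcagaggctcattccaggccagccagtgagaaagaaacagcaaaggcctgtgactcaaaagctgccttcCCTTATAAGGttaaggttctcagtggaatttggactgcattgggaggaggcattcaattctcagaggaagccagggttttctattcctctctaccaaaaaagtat
Trp63, downstream region (chr16:25942333-25942533, plus strand): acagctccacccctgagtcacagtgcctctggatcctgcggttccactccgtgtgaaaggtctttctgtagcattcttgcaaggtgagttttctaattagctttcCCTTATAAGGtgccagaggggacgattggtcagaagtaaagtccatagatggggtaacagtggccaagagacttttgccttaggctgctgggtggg
For the Mylk and Itga6 regions the match began at −99 and −66 bp from the summit. In the RefSeq promoter table, which runs from 250 bases before to 50 after a start and was matched for 5 of the 10 genes (Lamb3, Oxtr, Cnn1, Mylk and Acta2), 0 of the windows held this strict form of the box, against 1.63% of 32851 promoters. The p63 consensus was found in 10 of the 128 windows (7.81%) and in 7.91% of all regions.

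Oxtr encodes the oxytocin receptor, through which myoepithelial cells are made to contract. Its start, at position 112489943 of chromosome 6, was covered by a weak shared region with 28 Dll1+ and 39 Dll1− reads, at percentiles 17.8 and 15.5. A stronger region 0.98 kb upstream, at chr6:112490631-112491219, stood at 81.3 and 81.2 with 94 and 137 reads. The strongest Oxtr region in both lists, 7.71 kb upstream at chr6:112497473-112497835, had 98 and 121 reads and percentiles of 87.2 and 87.5. These 3 regions differed by less than 3 points. Other regions near the gene ranked lower in the Dll1+ list: those in an intron 3.83 and 5.12 kb downstream of the internal start at 112488394 by −7.37 and −11.7 points, and that 11.4 kb upstream by −15.5 points. Of the 9 shared regions, 4 ranked at least 10 points higher in the Dll1− list and 0 did so in the Dll1+ list. The largest of these differences, −17.4 points, was at a region 95.1 kb upstream with 20 and 42 reads. On the relative read scale the median over the 9 regions was 0.05, and of the 6 regions that ranked lower in the Dll1+ list 3 had a relative log2 read ratio below 0, at −0.22 to −0.42.

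The adhesion genes encode integrin α6 (Itga6) and integrin β4 (Itgb4), which pair as the laminin receptor of hemidesmosomes, and the laminin β3 chain (Lamb3), a subunit of the laminin to which that receptor binds. Together they had 45 regions, of which 31 were shared, 4 were in the Dll1+ list only and 10 were in the Dll1− list only.

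The main starts of all 3 genes lay in strong shared regions of similar rank. The Lamb3 start at 193301993 of chromosome 1 was in a region with 272 Dll1+ reads (241 to 306) and 385 Dll1− reads (348 to 425), at percentiles 94.8 and 94.7. The Itgb4 start at 115974709 of chromosome 11 was in a region with 178 (153 to 206) and 295 (262 to 331) reads, at 93.9 and 93.1. The Itga6 start at 71786940 of chromosome 2 was in a region with 234 (205 to 266) and 471 (429 to 516) reads, at 89.5 and 93.5. None of these promoters differed by more than 4.01 points, but a region this near the top has little room to rank higher in the other list. Their relative log2 read ratios were 0.20 for Lamb3, −0.02 for Itgb4 and −0.30 for Itga6.

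Away from the promoters the adhesion genes varied. Of the 20 shared Itga6 regions, 7 ranked at least 10 points higher in the Dll1− list and 5 did so in the Dll1+ list. The region of Itga6 with the largest difference toward Dll1−, 96.4 kb upstream, had 53 reads (39.7 to 69.3) in the Dll1+ list and 165 (141 to 192) in the Dll1− list, with percentiles of 62.0 and 87.8. The opposite was seen in an intron at chr2:71762773-71763372, with 58 reads (44.0 to 75.0) and 57 reads (43.2 to 73.9) and percentiles of 64.8 and 43.1. For Itgb4, an intronic region 0.79 kb downstream of a further start at 115974979 stood at 34.5 for Dll1+ cells and 11.2 for Dll1− cells, the largest difference of the 10 genes toward Dll1+, with 47 and 48 reads. Upstream of Itgb4, in introns of Sap30bp, the regions at chr11:115954727-115955728 and chr11:115958009-115958348 ranked 29.4 and 31.6 points higher in the Dll1− list. The local background there was up to 5.98 times the genome background in the Dll1+ list and 5.29 times in the Dll1− list, which lowers fold enrichment for a given number of reads, and the part of this background in the rank differences was not tested. Lamb3 varied less: 5 of its 6 shared regions differed by less than 10 points and the other by −10.35 points, and its second strongest region, 28.2 kb downstream of a further start at 193302243, stood at 92.8 in both lists. The strongest regions of the adhesion genes found in the Dll1+ list only were weak, at percentiles 13.9 for Itga6, 8.31 for Itgb4 and 10.2 for Lamb3.

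The AP-1 consensus, TGACTCA or TGAGTCA read on either strand, divided the regions of the basal genes by list in the same order as it divided all regions. AP-1 dimers of Fos and Jun proteins bind this sequence at many epithelial enhancers. It lay within 100 bp of the strongest summit in 18 of the 82 shared regions (21.95%, all shared regions 15.4%), in 14 of the 32 Dll1− only regions (43.8%, interval 28.2 to 60.7%; all such regions 30.4%) and in 0 of the 14 Dll1+ only regions (0%, interval up to 21.5%; all such regions 4.40%). Trp63 supplied 6 of the 14 Dll1− only regions with the consensus. Windows of 50 bp on each side gave 13 of 32 and 0 of 14.

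**Figure D5:**
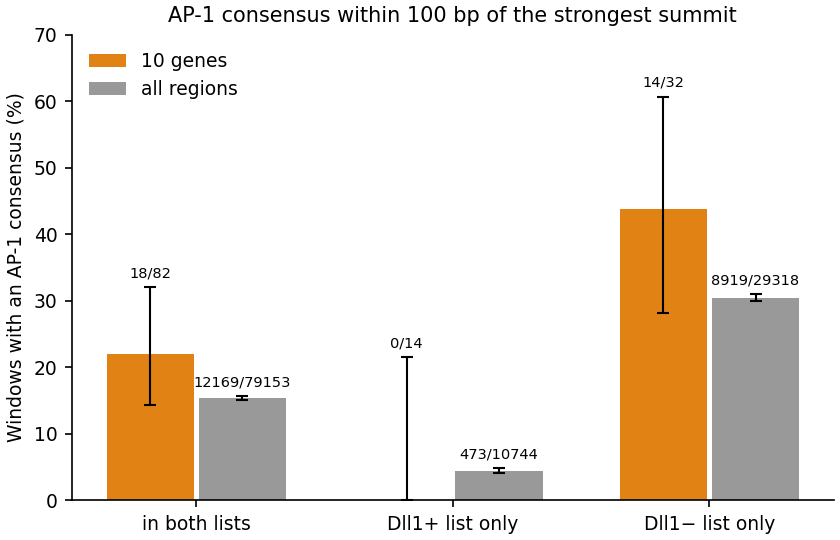
Share of regions with an AP-1 consensus within 100 bp of the strongest summit, for the 10 genes (orange) and for all regions (grey), by the list in which the region was found. Bars start at 0, lines are Wilson 95% intervals and the counts stand above them; the orange bar is at 43.8% for regions of the Dll1− list only and at 0% for those of the Dll1+ list only.

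Of the 10 genes, 7 had a Dll1− only region, and in 4 of these 7 the strongest such region held the consensus. Those 4 are shown with the 3 that did not hold it, because each is the strongest region of its gene that was called in Dll1− cells and not in Dll1+ cells; other such regions lay nearer to the start for Oxtr, Itga6, Trp63 and Myh11. Each line gives 141 bases, 70 on either side of the summit, 5′ to 3′ on the strand of the gene, with the AP-1 consensus in capitals.
Oxtr (chr6:112570609-112570749, minus strand): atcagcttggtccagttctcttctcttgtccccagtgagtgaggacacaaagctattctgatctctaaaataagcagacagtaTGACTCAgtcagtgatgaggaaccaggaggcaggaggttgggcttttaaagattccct
Itga6 (chr2:71696906-71697046, plus strand): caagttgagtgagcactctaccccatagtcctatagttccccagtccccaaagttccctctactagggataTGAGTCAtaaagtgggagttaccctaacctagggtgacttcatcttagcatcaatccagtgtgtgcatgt
Itgb4 (chr11:115970408-115970548, plus strand): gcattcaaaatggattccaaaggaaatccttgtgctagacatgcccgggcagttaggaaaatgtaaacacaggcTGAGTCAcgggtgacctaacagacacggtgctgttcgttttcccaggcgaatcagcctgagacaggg
Lamb3 (chr1:193298276-193298416, plus strand): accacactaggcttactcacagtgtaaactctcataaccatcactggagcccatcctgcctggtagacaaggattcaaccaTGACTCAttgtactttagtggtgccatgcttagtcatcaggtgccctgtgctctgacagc
Trp63 (chr16:25725019-25725159, plus strand): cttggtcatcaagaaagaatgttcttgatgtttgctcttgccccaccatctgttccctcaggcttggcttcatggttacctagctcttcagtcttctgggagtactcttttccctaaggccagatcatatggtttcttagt
Myh11 (chr16:14258991-14259131, minus strand): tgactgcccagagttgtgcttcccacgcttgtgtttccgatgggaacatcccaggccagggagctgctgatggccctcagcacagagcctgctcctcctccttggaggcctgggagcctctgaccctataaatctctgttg
Mylk (chr16:34839765-34839905, plus strand): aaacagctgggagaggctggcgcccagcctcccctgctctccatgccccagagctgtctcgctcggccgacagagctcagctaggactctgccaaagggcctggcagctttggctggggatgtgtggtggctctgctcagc
The percentiles of these regions in the Dll1− list were 64.7 for Oxtr, 45.2 for Itga6, 27.5 for Itgb4, 41.9 for Lamb3, 60.9 for Trp63, 71.0 for Myh11 and 26.1 for Mylk. Of the 2 strongest, the Myh11 region lacked the consensus and the Oxtr region held it.

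The consensus was also present in 3 of the 5 shared regions with the largest rank difference toward Dll1−, those of Trp63, Acta2 and Itgb4 at −49.7, −37.0 and −29.4 points, and absent from the other two, those of Mylk and Itgb4 at −50.3 and −31.6 points. Where present it lay 8, 8 and 3 bp after the summit, and the same layout as above is used.
Trp63 (chr16:25615772-25615912, plus strand): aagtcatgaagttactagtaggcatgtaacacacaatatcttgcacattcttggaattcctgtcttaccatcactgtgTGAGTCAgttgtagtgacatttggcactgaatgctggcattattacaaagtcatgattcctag
Acta2 (chr19:34248662-34248802, minus strand): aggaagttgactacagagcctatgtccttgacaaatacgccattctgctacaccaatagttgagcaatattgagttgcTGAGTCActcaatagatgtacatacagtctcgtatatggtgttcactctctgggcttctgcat
Itgb4 (chr11:115954795-115954935, plus strand): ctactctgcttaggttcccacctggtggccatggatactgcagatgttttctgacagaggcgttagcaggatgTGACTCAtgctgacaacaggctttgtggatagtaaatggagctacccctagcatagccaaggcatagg
Mylk (chr16:34920918-34921058, plus strand): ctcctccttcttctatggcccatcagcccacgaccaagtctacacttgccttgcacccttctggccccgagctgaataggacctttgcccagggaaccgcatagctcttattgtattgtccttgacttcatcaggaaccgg
Itgb4, second region (chr11:115958102-115958242, plus strand): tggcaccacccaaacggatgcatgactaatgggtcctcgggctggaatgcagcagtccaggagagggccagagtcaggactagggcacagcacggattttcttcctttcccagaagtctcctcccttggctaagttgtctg
Over the shared regions of the 10 genes the median rank difference was −3.23 in the 18 with the consensus and −4.11 in the 64 without it, and over all shared regions of the genome it was −7.97 with and −0.90 without. The rank differences of the 82 regions had quartiles of −14.3 and 2.02, so the medians of these small sets are loosely determined, and whether they differ was not tested.

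Lists of related genes were counted in the same way, against the same backgrounds (24.6% of regions in the Dll1− list only and 9.01% in the Dll1+ list only; 3.18% and 0.664% of genes with a promoter region in that list only). For 12 other basal and myoepithelial regulators, led in number of regions by Jag1, Bcl11b and Egfr, 134 of 222 regions were shared, 16 (7.21%) were in the Dll1+ list only and 72 (32.4%) in the Dll1− list only, and 10 of the 12 genes had a promoter region in both lists, 1 in the Dll1− list only and 1 in the Dll1+ list only. For 14 other contractile and SRF-myocardin genes, led by Mrtfb and Tpm1, the counts were 131, 20 (9.85%) and 52 (25.6%) of 203, and 8 genes had a promoter region in both lists. Another 3 (Myl9, Des and Myocd) had a promoter region in the Dll1− list only and 1 (Tpm2) in the Dll1+ list only. For 12 other adhesion genes, led by Dst, the counts were 129, 10 (5.08%) and 58 (29.4%) of 197, and 11 genes had a promoter region in both lists. The median rank difference of shared regions was −1.88, −1.67 and −2.95 in these lists.

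The keratin genes that define basal cells had few regions. Krt5, Krt14 and Krt17 together had 7, of which 4 were shared and 3 were in the Dll1− list only, and of the 3 genes only Krt17 had a region in its promoter window, in both lists. Of 16 luminal genes, 15, including Krt8, Krt18 and Epcam, had a promoter region in both lists (background 59.7%), and 226 of their 305 regions (74.1%, background 66.4%) were shared, 34 (11.1%) were in the Dll1+ list only and 45 (14.8%) in the Dll1− list only. Thus both sorted populations carried open promoters of luminal genes together with most of those of the 10 basal genes, while the promoters of Krt5 and Krt14 and both starts of Trp63 were not called in either. Fewer cells with an open region and less opening per cell cannot be told apart in pooled populations.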

How the data were processed

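ATAC-seq had been run on 3 Dll1+ and 4 Dll1− samples of sorted tumour cells. The authors called open chromatin with the ENCODE ATAC-seq pipeline, 1 run a group over its replicates, and deposited the optimal peak list of each run, with 132872 rows (Dll1+) and 148923 rows (Dll1−). The aligner, peak caller and thresholds are not given in the sources used here. Each deposited row holds an interval, a summit, the fold enrichment (a ratio of reads to local background), a −log10 p-value, a −log10 q-value and a capped score, all as the authors' peak caller gave them. The q-value and score were not used here.

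The submitters' processing notes name mm10 and GRCm38. Of all rows, 0 passed a chromosome end, and 8.39% (Dll1+) and 7.67% (Dll1−) of summits lay within 100 bp of a TSS, against 0.440% and 0.460% after a shift of 10000 bp. Genes came from basic GENCODE M21 and sequences from GRCm38.p6; promoter sequences of the table are RefSeq's.

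Reads were recovered from fold and −log10 p under a Poisson model, in all but 1 row; the step was tested on simulated data. Reads carry no molecular identifiers and are not independent molecules. Ties in rank were averaged, and merging needed 1 bp of overlap or contact. The 10 genes and all lists were chosen with earlier results of these data known. The text names, for each of the 10 genes, its promoter regions, the strongest shared region, the largest rank differences and the strongest regions found in 1 list, and for other lists the genes with most regions; Krt8, Krt18, Epcam, Krt5, Krt14, Krt17, Myl9, Des, Myocd, Tpm2 and the genes for CD45 and CD31 were singled out after their values were seen. Of the listed symbols, 2 were older names of genes already listed. Alternatives were other thresholds, overlap rules, gene assignments, ranks and windows. Python 3.11.15, numpy 2.4.6, pandas 2.3.3, scipy 1.17.1, pysam 0.24.0 and matplotlib 3.10.9 were used.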

Additional observations from a re-analysis of the deposited data

How the results depend on the processing

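No paired analysis was possible because each list pools the samples of its group, and for the same reason no sample could be left out. The shares of shared and of Dll1− only regions of the 10 genes stayed within their intervals under every alternative run, at 56.9 to 71.0% and 21.5 to 27.4%. The Dll1+ only share fell to 5.80% (4 of 69 regions; all regions 9.44%) when each list was limited to its stronger rows by fold enrichment, and lay between 7.53 and 16.1% under the others. Scaling the Dll1− reads to the Dll1+ depth removed few rows, leaving 146651, and no region of the 10 genes. It therefore cannot show what part depth had in the calls of weak regions. The median rank difference over the 10 genes stayed negative, from −1.42 without Trp63 and Itga6 (−1.97 without Itga6; leaving out genes was chosen after seeing the data), nearer 0 than that of all shared regions (−1.67), to −6.17 when ranks were taken among regions, where all shared regions had −3.66. With a window of 2500 bp on each side, all 10 genes had a shared region at a start. The medians of Myh11 (−7.57 to −15.3) and Tagln (8.85 to 14.0), each of 2 regions at most, kept their sign. Those of Trp63, Mylk and Itga6 also stayed negative under every alternative. The medians of the remaining genes changed sign. Acta2 went from −1.24 to 1.502 with ranks among shared regions, and Cnn1 from 3.59 to −0.11 on the read ratio. With ranks on −log10 p, Itgb4 went from 0.78 to −0.42, and the promoter region of Acta2 from 5.19 to −0.07. Lamb3 went from 0.04 to −0.58 with ranks among regions, and Oxtr from −7.37 to 0.05 on the read ratio.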
